A study of Mus musculus with 18 samples.

Results

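The genes described here are 6 dual specificity MAP kinase phosphatases, Dusp1, Dusp2, Dusp4, Dusp5, Dusp6 and Dusp10, in CD8 T cells. They were chosen by name, as every probe set annotated with 1 of those 6 symbols. The array carried 7 such probe sets, 2 for Dusp10 and 1 for each other gene, among 18194 genes in all, and all 6 genes entered the tests on 13770 genes. Expression was measured on 18 Affymetrix arrays of RNA from C57Bl/6 F5 mice, whose T cells carry a transgenic T cell receptor for the NP68 peptide. Naive cells and TIM memory cells, the name the labels give to memory cells analysed at day 45 in mice immunised with NP68 on repeated occasions, were sorted from spleen. Ex vivo RNA came from 2 naive and 4 memory arrays. Cultured RNA came from cells kept for 20 h. Naive cells were kept in 10 ng/mL IL-7 with or without 20 ng/mL IL-4, and memory cells in medium alone, in IL-7, in IL-4 or in both cytokines, with 2 arrays for each of these 6 conditions. All arrays thus came from mice with the same receptor transgene, and no naive cells were kept in medium or in IL-4 alone. By the series' design text the cultured cells came from the same sorted populations as ex vivo samples, so the arrays are not all independent, and the p-values measure the spread between arrays.

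MAP kinases (ERK, JNK and p38) carry signals from the T cell receptor and from stress to the nucleus, and they are active only while a threonine and a tyrosine in their activation loop are both phosphorylated. Dual specificity phosphatases remove both phosphates. Dusp1, Dusp2, Dusp4 and Dusp5 are inducible nuclear enzymes whose transcription is itself switched on by MAP kinase signals, Dusp6 is a cytoplasmic phosphatase of ERK, and Dusp10 acts mainly on JNK and p38. IL-7 and IL-4 share the common gamma chain of their receptors, and signal mainly through STAT5 and STAT6 respectively.

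The promoters of 3 of the genes are shown because these genes followed different patterns below: Dusp1 was lower with every cytokine than ex vivo and lowest in memory cells with IL-4, Dusp5 fell steeply in IL-7 with or without IL-4, and Dusp10 was low in IL-7 and near its ex vivo level with IL-4. Each is the 250 bases before the gene's start in RefSeq (build GRCm38.p6), read 5′ to 3′ on the gene's strand: chr17:26508473-26508722, minus strand, for Dusp1; chr19:53528895-53529144, plus strand, for Dusp5; and chr1:184034131-184034380, plus strand, for Dusp10. Capitals mark letters that matched a searched motif on either strand.
Dusp1: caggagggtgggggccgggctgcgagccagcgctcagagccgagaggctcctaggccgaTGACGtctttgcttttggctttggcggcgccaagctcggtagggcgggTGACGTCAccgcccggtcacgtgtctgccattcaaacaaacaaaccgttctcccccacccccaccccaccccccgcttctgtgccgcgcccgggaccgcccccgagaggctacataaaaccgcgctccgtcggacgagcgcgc
Dusp5: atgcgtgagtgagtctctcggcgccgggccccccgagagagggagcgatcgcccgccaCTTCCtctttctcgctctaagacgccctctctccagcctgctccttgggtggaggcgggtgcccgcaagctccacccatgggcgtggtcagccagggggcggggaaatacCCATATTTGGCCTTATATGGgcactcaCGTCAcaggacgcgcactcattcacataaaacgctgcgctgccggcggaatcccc
Dusp10: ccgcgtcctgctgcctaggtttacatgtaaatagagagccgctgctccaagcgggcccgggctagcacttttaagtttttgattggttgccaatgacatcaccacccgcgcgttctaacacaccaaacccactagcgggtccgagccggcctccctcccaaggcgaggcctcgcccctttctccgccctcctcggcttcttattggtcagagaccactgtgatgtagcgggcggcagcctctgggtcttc
The search covered 300 bases of each promoter in the reference table, 250 before and 50 after the start, and 5 of the 6 genes had an entry. The core of the cyclic AMP response element (TGACG) matched 3 times in Dusp1, where 2 of the matches overlap on opposite strands, and once each in Dusp2 and Dusp5, against a share of 20.81% of all 32851 windows with at least 1 match. Dusp5 also held 2 adjacent CArG boxes, the element bound by serum response factor, a motif that was added after the sequence had been read and that 1.629% of the windows held. The ETS core (GGAAG) matched in Dusp2, Dusp5 and Dusp6, and in 71.41% of all windows. The STAT5-type motif (TTCNNNGAA, 8.298% of windows), the STAT6-type motif (TTC and GAA with 4 bases of any kind between them, 6.953%) and the AP-1 motif (TGANTCA, 7.808%) matched in none of the 5, and Dusp10 had no match to any of the 6 motifs. A match is a description of letters, not of a bound site.

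The 6 CD8 T cell markers on the array, among them Cd8a and Cd3e, were bright on all 18 arrays, with a list mean of 11.40 to 12.07. Lists for other cells were lower: 4.73 to 5.66 for B cells and 3.95 to 4.37 for myeloid cells. The CD4 T cell list gave 4.15 to 4.68 and the platelet list 4.94 to 5.57. Foxp3, Ppbp and Itgam were never above the value used as a filter, but other listed genes passed it on all 18 arrays. These were Cd79b (7.25 to 8.79), Pax5 and Blk for B cells, and Lyz2, Csf1r and Cd14 for myeloid cells. Cd4 and Cd40lg for CD4 T cells, and Itga2b (7.56 to 8.43), Pf4 and Gp9 for platelets, did so too. In the red cell precursor list Hba-a1 was never above the filter value while Alas2 ran from 4.15 to 11.50, and the list mean was higher in memory (5.20 to 7.44) than in naive arrays (3.78 to 4.70). That filter value was 4.06, the 40th percentile of all values, and all values here are log2 RMA values, the scale on which the arrays were normalised together. A value is compared only between arrays for the same probe set.

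The array labelled memory cells in medium, replicate 2, stood apart from its label's other array. It correlated at 0.995 with ex vivo memory array 2 and at 0.956 with the other medium array, whereas medium array 1 was most like an IL-7 array (0.996). Over the 6 phosphatase genes, medium array 2 differed from the ex vivo memory mean by 0.43 on average (mean absolute difference) and from the memory IL-7 mean by 2.77, while for medium array 1 these were 2.83 and 0.366. The 3′ to 5′ difference of the Gapdh control probes was 2.35 on medium array 2. That is within the ex vivo range of 2.07 to 2.69 and below that of the 11 other cultured arrays (2.67 to 3.36). The Actb control probes went the other way. Their difference was 1.87 on medium array 2, below the ex vivo range (1.95 to 2.07) and within that of the other cultured arrays (1.63 to 2.25). Each comparison with medium is therefore given with and without this array, which also widens the spread that limma shares over all groups.

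**Figure D1:**
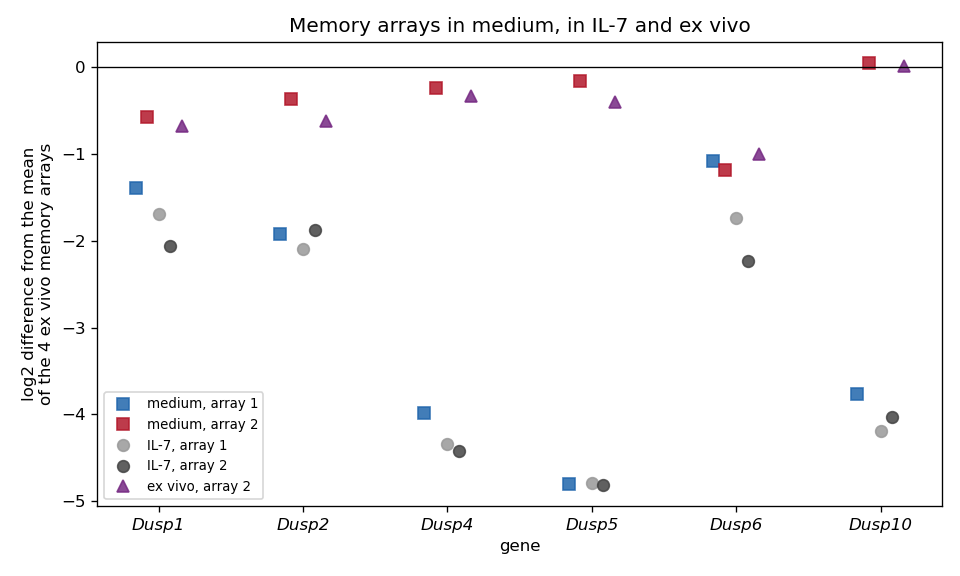
Log2 difference of the library labelled memory in medium, arrays 1 and 2 (squares), of both memory IL-7 arrays (circles) and of ex vivo memory array 2 (triangle) from the mean of the 4 ex vivo memory arrays, for each of the 6 genes. For Dusp2, Dusp4, Dusp5 and Dusp10, medium array 1 lies with the IL-7 arrays and medium array 2 near 0 with the ex vivo array; for Dusp6 both medium arrays lie together.

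All 6 phosphatase genes were lower after 20 h in IL-7 than ex vivo, in naive and in memory cells. In memory cells the fitted falls ranged from 3.68-fold for Dusp1 to 27.9-fold for Dusp5, with that of Dusp4 limited by values under the filter, and in naive cells from 2.47-fold for Dusp2 to 19.4-fold for Dusp10. The test called 6 of 6 genes lower in memory cells, where 8.85% of all genes tested were called lower, and 6 of 6 in naive cells, where 5.8% were. The median log2 change of the 6 was -3.05 in memory and -2.89 in naive cells, against -0.05 and 0.07 over all genes tested. In bulk RNA, fewer cells with the transcript and less transcript per cell cannot be told apart.

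**Figure D2:**
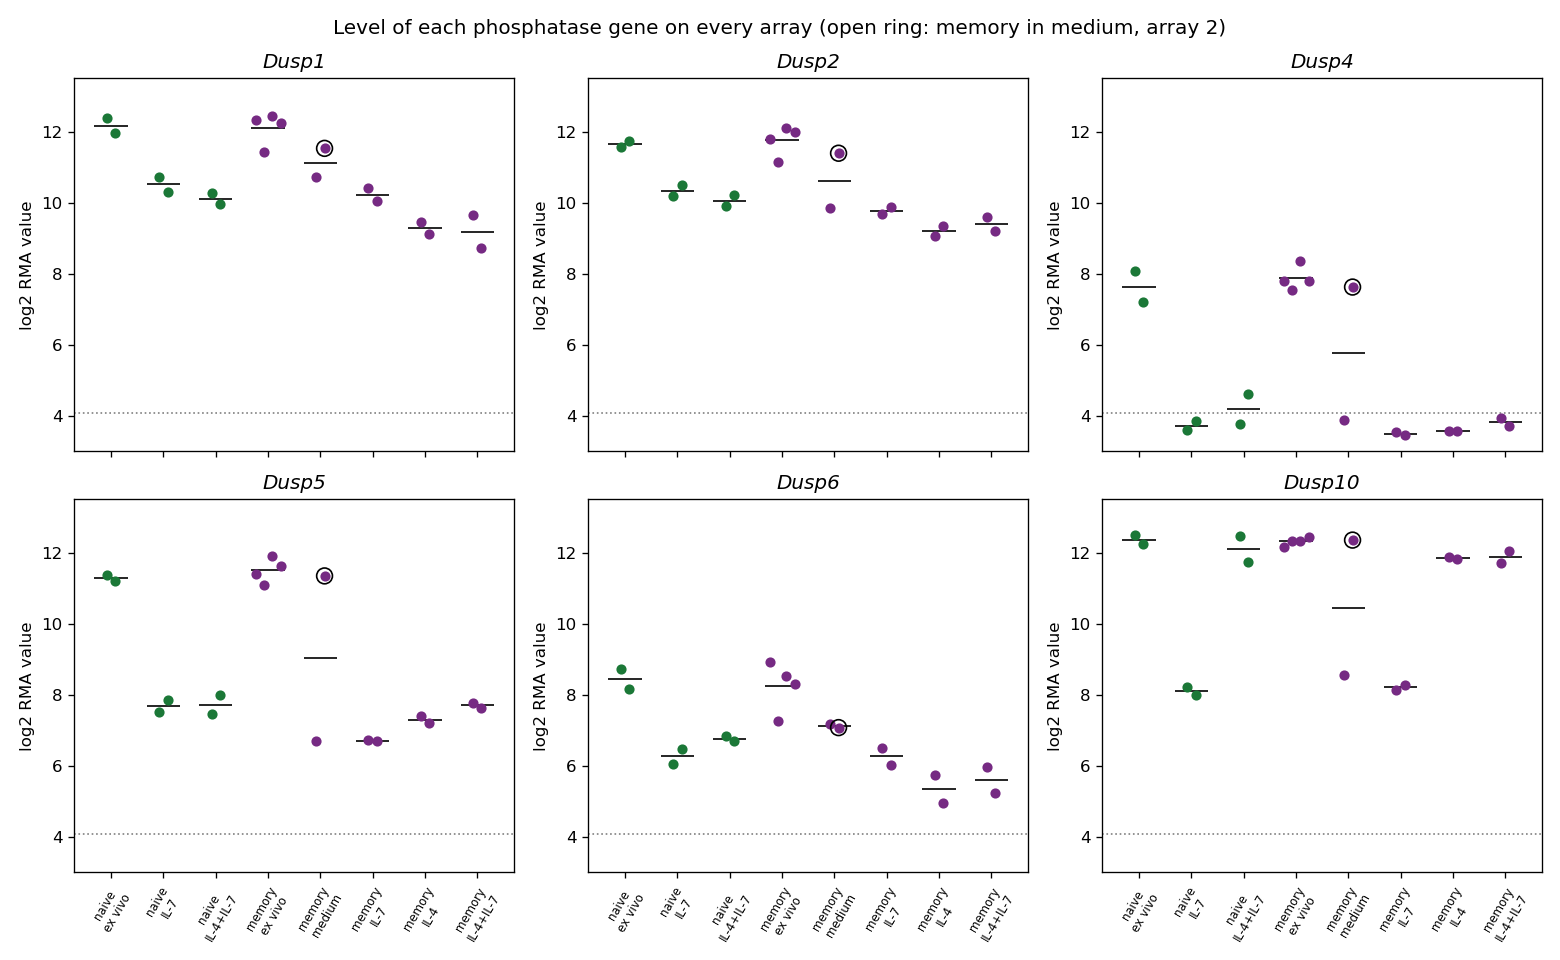
Log2 RMA value of the 6 genes (brightest probe set of each) on the 18 arrays, by group; green points are naive and purple points memory arrays, black bars are group means, the dotted line is the filter value of 4.06 and the ringed point is memory medium array 2. All 6 genes are high on the ex vivo arrays, and Dusp10 is also high in the groups with IL-4, where the other 5 are low.

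Dusp5, a nuclear phosphatase specific for ERK, was at 11.36 and 11.19 on the naive ex vivo arrays and at 11.40, 11.10, 11.92 and 11.62 on the memory ex vivo arrays. In IL-7 it was at 7.50 and 7.85 in naive and at 6.72 and 6.70 in memory cells, and with IL-4 and IL-7 at 7.46 and 7.98 in naive and at 7.76 and 7.64 in memory cells. Memory cells in IL-4 alone gave 7.39 and 7.20. Every ex vivo array was thus well above every array cultured with a cytokine, with no overlap. In medium the values were 6.70 on array 1 and 11.34 on array 2, at opposite ends of the range. The change in IL-7 was -4.80 in memory cells (95% interval -6.48 to -3.12, SE 0.78, adjusted p = 0.00435 by limma with Benjamini-Hochberg adjustment over all genes, as throughout) and -3.60 in naive cells (SE 0.90, adjusted p = 0.0214).

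Dusp4, a nuclear phosphatase of ERK and JNK, was at 8.07 and 7.20 on the naive and at 7.81, 7.54, 8.35 and 7.79 on the memory ex vivo arrays. In IL-7 it was at 3.61 and 3.84 in naive and at 3.53 and 3.45 in memory cells. With both cytokines it was at 3.77 and 4.62 in naive and at 3.95 and 3.71 in memory cells, and in IL-4 alone at 3.58 and 3.57. Only 8 of the 18 arrays were above the filter value, the 6 ex vivo arrays, medium array 2 (7.62, against 3.88 on medium array 1) and 1 naive array with both cytokines, so the size of its fall is uncertain. As fitted, it was -4.38 in memory (95% interval -5.81 to -2.95, adjusted p = 0.00408) and -3.91 in naive cells (adjusted p = 0.00721).

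Dusp1, the immediate-early MAP kinase phosphatase that acts on p38 and JNK as well as ERK, was at 12.38 and 11.95 on the naive and at 12.33, 11.43, 12.43 and 12.25 on the memory ex vivo arrays. In IL-7 it was at 10.72 and 10.31 in naive and at 10.41 and 10.04 in memory cells. In medium it was at 10.71 and 11.53. The ex vivo arrays lay above the IL-7 arrays without overlap, and only medium array 2 reached the lowest ex vivo value. The change in IL-7 was -1.88 in memory (95% interval -2.57 to -1.19, SE 0.32, adjusted p = 0.0047) and -1.65 in naive cells (SE 0.37, adjusted p = 0.0138).

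Dusp2, a nuclear phosphatase abundant in activated lymphocytes, was at 11.56 and 11.72 on the naive and at 11.80, 11.14, 12.11 and 11.98 on the memory ex vivo arrays. In IL-7 it was at 10.18 and 10.49 in naive and at 9.67 and 9.88 in memory cells, again without overlap with the ex vivo arrays. Medium gave 9.84 and 11.39. The change in IL-7 was -1.99 in memory (95% interval -2.72 to -1.25, adjusted p = 0.00474) and -1.31 in naive cells (95% interval -2.16 to -0.46, adjusted p = 0.0442). The naive value had the highest adjusted p of the 6 genes in either cell type, and it was lost in 13 of the 18 fits that left out 1 array and with no filter on low values (adjusted p = 0.0538).

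Dusp6, the cytoplasmic feedback phosphatase of ERK, was at 8.73 and 8.16 on the naive and at 8.92, 7.25, 8.54 and 8.31 on the memory ex vivo arrays. In IL-7 it was at 6.05 and 6.48 in naive and at 6.51 and 6.02 in memory cells. The lowest ex vivo array, memory array 2, was still above every array with a cytokine. Unlike the other genes, Dusp6 was alike on both medium arrays, at 7.17 and 7.07, near ex vivo memory array 2. The change in IL-7 was -1.99 in memory (95% interval -2.81 to -1.17, adjusted p = 0.00611) and -2.18 in naive cells (95% interval -3.12 to -1.23, adjusted p = 0.00811).

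Dusp10, the phosphatase of JNK and p38, was at 12.50 and 12.23 on the naive and at 12.16, 12.33, 12.34 and 12.43 on the memory ex vivo arrays by its brighter probe set. In IL-7 it was at 8.20 and 7.98 in naive and at 8.12 and 8.28 in memory cells, with a wide gap to the ex vivo arrays. The change was -4.11 in memory (95% interval -5.50 to -2.73, SE 0.65, adjusted p = 0.00435, 17.3-fold) and -4.28 in naive cells (SE 0.75, adjusted p = 0.00414, 19.4-fold).

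These calls depended on single arrays. Without memory IL-7 array 1 or array 2, 0 of the 6 genes were called in memory cells, with changes of -1.70 to -4.81 and adjusted p from 0.0526 to 0.0803. Without naive ex vivo array 1 or 2, or naive IL-7 array 1 or 2, the naive calls went from 6 to 1, 3, 3 and 2. Without medium array 2, which belongs to neither comparison but enters the shared spread, all 6 were called in both cell types, with adjusted p of 9.3e-09 to 0.00141 in memory and 6.31e-08 to 0.00353 in naive cells; the background of genes called lower was then 11.1% and 7.94%. The fall in memory cells did not differ detectably from that in naive cells for any of the 6 (0 called where 0.0508% of genes were; the differences ran from -1.20 for Dusp5, 95% interval -3.77 to 1.36, to 0.19 for Dusp6).

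With IL-4, Dusp10 stood near its ex vivo level, and the other 5 genes stayed low. Dusp10 was at 12.46 and 11.74 in naive cells with IL-4 and IL-7, at 11.70 and 12.04 in memory cells with both, and at 11.88 and 11.83 in memory cells with IL-4 alone. The lowest of these 6 arrays, at 11.70, was far above the highest of the 4 arrays in IL-7 alone, at 8.28. IL-4 added to IL-7 raised Dusp10 12.7-fold in memory cells (log2 change 3.67, 95% interval 2.07 to 5.27, SE 0.75, adjusted p = 0.0207) and 16.1-fold in naive cells (4.01, 95% interval 2.41 to 5.61, SE 0.75, adjusted p = 0.0157). It was the 1 of the 6 genes called higher in each, where 1.21% and 0.879% of all genes tested were called higher.

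**Figure D3:**
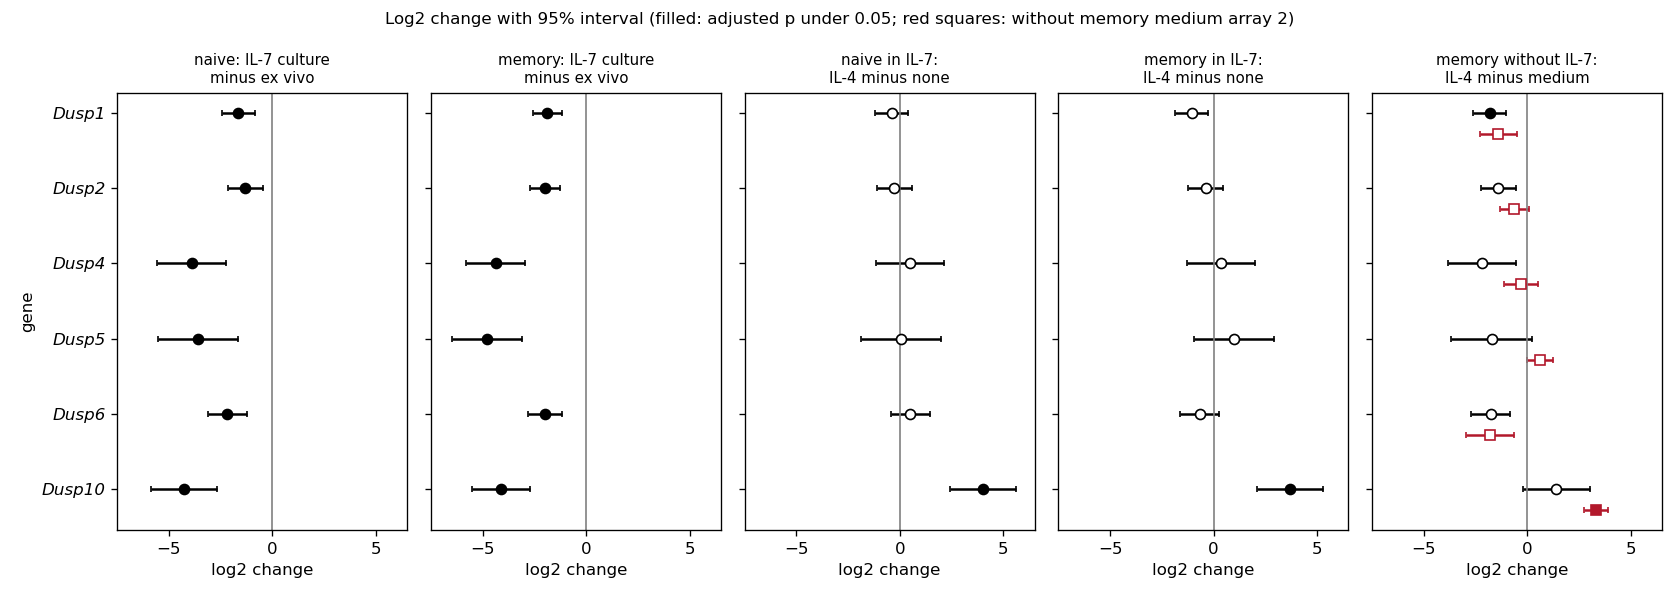
Log2 change of the 6 genes in 5 comparisons, with 95% intervals; filled symbols have an adjusted p under 0.05, and red squares in the last panel are values without memory medium array 2. In both IL-7 culture panels all 6 are below 0 and called, and in both panels of IL-4 added to IL-7 the called gene is Dusp10.

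The other 5 genes did not pass the test when IL-4 was added to IL-7. In memory cells the changes were -1.05 for Dusp1 (95% interval -1.85 to -0.25, adjusted p = 0.202), -0.37 for Dusp2, 0.34 for Dusp4, 0.99 for Dusp5 (adjusted p = 0.653) and -0.67 for Dusp6. In naive cells they were -0.40, -0.28, 0.47, 0.05 and 0.49 in the same order, with adjusted p from 0.832 to 0.996. Dusp1 was at 10.27 and 9.96 in naive and at 9.65 and 8.71 in memory cells with both cytokines, so that its memory arrays lay below both memory IL-7 arrays. Dusp6 was at 6.82 and 6.69 in naive and at 5.96 and 5.23 in memory cells with both cytokines, above the naive IL-7 arrays in the first and below the memory IL-7 arrays in the second. The response to IL-4 did not differ detectably between memory and naive cells for Dusp6 (-1.16, 95% interval -2.49 to 0.17, adjusted p = 0.556) or for Dusp10 (-0.34, 95% interval -2.61 to 1.92, adjusted p = 0.923), and 0 of the 6 genes were called in that difference, as were 0.0726% of all genes.

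The second Dusp10 probe set, which is dimmer, gave the same split into high and low groups, though not the same order within them. It was at 7.39 and 7.10 ex vivo, 4.59 and 4.10 in IL-7 and 7.09 and 6.92 in both cytokines in naive cells. In memory cells it was between 6.26 and 6.92 ex vivo, at 3.80 and 4.00 in IL-7, 6.52 and 6.73 in both cytokines, and 6.78 and 6.72 in IL-4. In a fit over all 24520 probe sets with 1 symbol that passed the filter, IL-4 added to IL-7 raised it by 2.73 in memory cells (adjusted p = 0.0133) and by 2.66 in naive cells (adjusted p = 0.0189), and its changes in IL-7 against ex vivo were -2.74 (adjusted p = 0.0038) and -2.90 (adjusted p = 0.005).

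**Figure D4:**
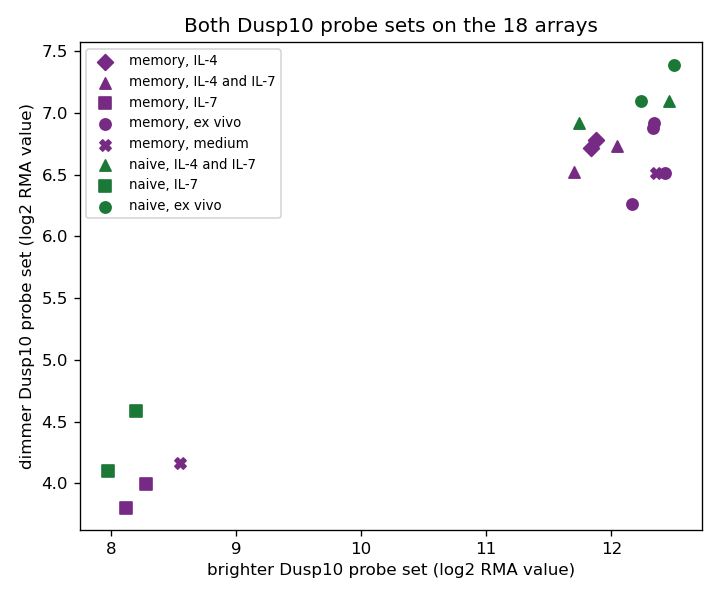
Log2 RMA values of the 2 Dusp10 probe sets against each other on the 18 arrays, with the groups by colour (green naive, purple memory) and symbol. The 4 IL-7 arrays and memory medium array 1 are low on both axes, and the other 13 arrays are high on both.

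The Dusp10 calls rested on few arrays. Leaving out memory IL-7 array 1 or 2, or the memory array 1 or 2 with both cytokines, gave changes of 3.59, 3.75, 3.84 and 3.50 with adjusted p of 0.177, 0.129, 0.0809 and 0.164. In naive cells the call was lost when either array in IL-7 or the first array with both cytokines was left out (changes of 4.12, 3.90 and 3.65, adjusted p of 0.131, 0.128 and 0.163). Without medium array 2 the adjusted p was 2.37e-07 in memory and 1.01e-07 in naive cells, and without medium array 1 or without medium array 2 Dusp5 also passed in memory cells (0.99, adjusted p = 0.0344 in both cases). The list mean of 3 genes listed as NK cell markers moved with Dusp10, at 4.15 to 4.19 in memory IL-7, 5.43 to 5.61 in memory IL-4 and 5.47 to 5.60 in memory cells with both cytokines, and at 4.05 to 4.07 and 4.85 to 5.10 in naive cells without and with IL-4. Of the 3, Gzma (5.04 to 9.78) is also made by CD8 T cells, Ncr1 stayed between 4.08 and 4.79 and Klra8 was above the filter value on 2 arrays; the part of such cells in the result was not tested.

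The comparisons of the IL-4 groups with ex vivo cells were added after these levels had been seen, and they share their ex vivo arrays with the comparisons above. In memory cells with both cytokines 5 of 6 genes were called lower (9.38% of all genes were), with changes of -2.36 for Dusp2 to -4.04 for Dusp4. In memory cells with IL-4 alone 5 of 6 were called lower (8.5% of all genes), from -2.56 for Dusp2 to -4.29 for Dusp4. In naive cells with both cytokines 5 of 6 were called lower (5.85% of all genes), from -1.59 for Dusp2 to -3.55 for Dusp5. Dusp10 was the gene not called in each: -0.44 (95% interval -1.83 to 0.94, adjusted p = 0.696), -0.46 (95% interval -1.85 to 0.93, adjusted p = 0.693) and -0.26 (95% interval -1.86 to 1.34, adjusted p = 0.88). These intervals do not exclude a fall of Dusp10 of the size seen for Dusp1 in naive cells in IL-7. Without medium array 2, which is in none of these comparisons but enters the shared spread, they were narrower. In the same order they were then -0.84 to -0.05, -0.86 to -0.06 and -0.72 to 0.20, so that both memory intervals lay below 0. In naive cells with both cytokines the count of 5 went to 1 without naive ex vivo array 1, to 2 without naive ex vivo array 2 and to 1 without array 1 with both cytokines.

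The comparison of IL-4 with medium, in memory cells without IL-7, rests on the medium arrays. With both arrays, Dusp1 was the 1 gene of the 6 called lower (0.675% of all genes were), at 9.46 and 9.12 in IL-4 against 10.71 and 11.53 in medium, a change of -1.83 (95% interval -2.62 to -1.03, adjusted p = 0.0218). The changes of Dusp2, Dusp4, Dusp5 and Dusp6 were -1.41, -2.18, -1.73 and -1.77 (adjusted p from 0.0575 to 0.443), and that of Dusp10 was 1.40 (adjusted p = 0.45). Without medium array 2 the call moved to another gene. Dusp1 was then at -1.42 (adjusted p = 0.162), and Dusp10 was the 1 gene called, 9.89-fold higher with IL-4 (3.31, 95% interval 2.74 to 3.87, adjusted p = 7.56e-06; 0.951% of all genes were called higher). Dusp5 turned from -1.73 to 0.59 (adjusted p = 0.63), while Dusp6, alike on both medium arrays, was at -1.82 (adjusted p = 0.165). Without medium array 1 in its place, the changes were -2.24 for Dusp1, -2.19 for Dusp2, -4.05 for Dusp4 and Dusp5, and -0.50 for Dusp10. The medium array left in that fit is the one like the ex vivo arrays. Leaving out IL-4 array 1 or 2 ended the Dusp1 call as well (-2.00 and -1.66, adjusted p of 0.112 and 0.195).

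Medium alone against ex vivo memory cells gave 0 of the 6 genes and 0 of all genes called with both medium arrays by limma, and 0 by limma-trend; 1364 genes, all 6 phosphatase genes among them, had an unadjusted p under 0.05. Without medium array 2, 5 of the 6 were called lower, where 5.61% of all genes were: Dusp5 by -4.81 (28.0-fold, adjusted p = 5.1e-07), Dusp4 by -3.99, Dusp10 by -3.77 (adjusted p = 8.08e-07), Dusp2 by -1.92 and Dusp1 by -1.40. Dusp6 was at -1.08 (adjusted p = 0.166). The single remaining medium array is assumed there to vary like the other groups.

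With all 18 arrays, IL-7 changed none of the 6 genes detectably in memory cells. The result against medium depended on which medium array was kept. Against medium all 6 changes were negative, from -0.84 for Dusp2 to -2.32 for Dusp5 (adjusted p = 0.723 for each), and 0 genes were called by limma or limma-trend, with 804 genes and 4 of the 6 at an unadjusted p under 0.05. Without medium array 2 these changes were -0.07 for Dusp2, -0.34 for Dusp10, -0.39 for Dusp4, 0.0029 for Dusp5, -0.48 for Dusp1 and -0.91 for Dusp6, with none called. Without medium array 1, which leaves the medium array like the ex vivo arrays, the changes were larger. They were -1.30 for Dusp1, -1.62 for Dusp2, -4.13 for Dusp4, -4.64 for Dusp5 and -4.15 for Dusp10. In the presence of IL-4 the changes with IL-7 were -0.11 to 0.40, with 0 genes called by either and 286 genes and 0 of the 6 at an unadjusted p under 0.05. For Dusp10 this change was 0.02 (95% interval -1.58 to 1.62). The difference between the response to IL-4 with and without IL-7 called 0 genes by either tool. There, 650 genes and 2 of the 6 had an unadjusted p under 0.05. Without medium array 1 this difference was 1.82 for Dusp2, 4.38 for Dusp4, 5.04 for Dusp5 and 4.17 for Dusp10.

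Memory and naive cells did not differ detectably in any of the 6 genes. Ex vivo the differences, memory minus naive, were -0.19 for Dusp6 to 0.24 for Dusp4 (adjusted p from 0.825 to 0.977), where 1.93% of all genes were called. By the brightest probe sets the ranges of the naive and memory arrays overlapped for all 6. The differences of Dusp4 and Dusp5 were the least precise, with 95% intervals of -1.19 to 1.66 and -1.44 to 1.91. On the dimmer Dusp10 probe set both naive ex vivo arrays (7.39 and 7.10) lay above the 4 memory arrays (6.26 to 6.92). That difference was -0.60 and was not called (limma over all probe sets, adjusted p = 0.502). Its naive arrays also lay above its memory arrays in IL-7 (-0.44) and with both cytokines (-0.38), neither called. In IL-7 none of the 6 was called (2.7% of all genes were). Dusp5 was there at 7.50 and 7.85 in naive and at 6.72 and 6.70 in memory cells (-0.97, adjusted p = 0.768), a difference that passed without medium array 1 or without medium array 2 (adjusted p = 0.0312 in both cases). With both cytokines none was called (3.81% of all genes were), with Dusp6 at -1.16 (95% interval -2.10 to -0.22, adjusted p = 0.144) and Dusp1 at -0.94 (95% interval -1.73 to -0.14, adjusted p = 0.161). On each of these genes both memory arrays lay below both naive arrays. The same held for Dusp2 with both cytokines (9.59 and 9.20 against 9.90 and 10.20). It also held for Dusp2 in IL-7 (9.67 and 9.88 against 10.18 and 10.49).

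Ordered by group mean, Dusp1, Dusp2, Dusp4, Dusp5 and Dusp6 had both ex vivo groups at the top, medium next and all cytokine groups below it, but the place of medium rests on array 2. On medium array 1 alone, Dusp5 (6.70) was level with memory IL-7, the lowest group; Dusp2 (9.84) was below naive IL-7 and naive with both; Dusp4 (3.88) was below naive with both; and Dusp1 (10.71) and Dusp6 (7.17) were still above every cytokine group's mean. For Dusp1 the order below medium was naive IL-7 (10.52 ± 0.29, SD, n = 2), memory IL-7 (10.23 ± 0.26), naive with both (10.12 ± 0.22), memory IL-4 (9.29 ± 0.24) and memory with both (9.18 ± 0.66), with neighbours overlapping except between naive with both and memory IL-4. For Dusp10 the order was naive ex vivo (12.37 ± 0.19), memory ex vivo (12.32 ± 0.11), naive with both (12.10 ± 0.51), memory with both (11.87 ± 0.24), memory IL-4 (11.86 ± 0.03), medium (10.45 ± 2.69), memory IL-7 (8.20 ± 0.11) and naive IL-7 (8.09 ± 0.16), and its first 5 groups did not differ beyond their spread from their neighbours. All memory arrays with IL-4 (11.70 to 12.04) nonetheless lay below the memory ex vivo arrays (12.16 to 12.43) on this probe set. On the dimmer Dusp10 probe set they lay within the memory ex vivo range of 6.26 to 6.92.

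Across the 18 arrays, which fall into a high and a low set for most of these genes, the 5 genes other than Dusp10 correlated with each other at r from 0.82 to 0.99, and with Dusp10 at 0.27 to 0.63. These are descriptions of arrays that share groups. The tested genes most like each member over the 18 arrays were, for Dusp1, Zfp36l2 (r = 0.977), Fos (0.969) and Stk17b (0.966); for Dusp2, Nfkbid (0.977), Ppp1r15a (0.976) and Pim3 (0.974); and for Dusp4, Fosl2 (0.988), Dusp5 (0.988) and Gem (0.985). For Dusp5 they were Siah2 (0.994), Plk3 (0.991) and Junb (0.991), and for Dusp6 Tespa1 (0.953), Dusp1 (0.953) and Cdc14a (0.952). Those most like Dusp10 were Mxd1 (0.963), Frmd4b (0.951) and Ppp1r16b (0.940), none of which is in the other genes' lists.

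Of 20 genes tested that ERK signalling is known to induce or that are its feedback inhibitors, 13 were lower and 0 higher in memory cells in IL-7 than ex vivo, with a list median of -1.25; of all genes 8.85% were called lower and 11.1% higher. Nr4a1, an immediate-early nuclear receptor, fell by 6.94 (adjusted p = 0.00692), from 12.54 to 12.86 ex vivo to 5.64 and 5.77. Junb, an AP-1 subunit, fell by 4.60 (adjusted p = 0.00392), Fosb by 4.45, Egr1 by 4.39, Egr2 by 3.60 and Fos by 3.29; the others were Ier2, Jun, Phlda1, Spred1, Spred2, Spry2 and Spry4. In naive cells 6 were lower, namely Fos, Fosb, Junb, Phlda1, Spred1 and Spred2, and 2 were higher, Myc by 2.64 (adjusted p = 0.00155) and Ier3 by 1.32 (adjusted p = 0.0295), and 12 were not called, with a list median of -0.56; of all genes 5.8% were called lower and 7% higher. IL-4 added to IL-7 changed 0 of the 20 in either cell type. IL-4 without IL-7 gave Myc higher (1.80; 1.26% of all genes were called higher) and Fos and Fosb lower (-2.89 and -4.16), and 0 of the 20 without medium array 2.

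**Figure D5:**
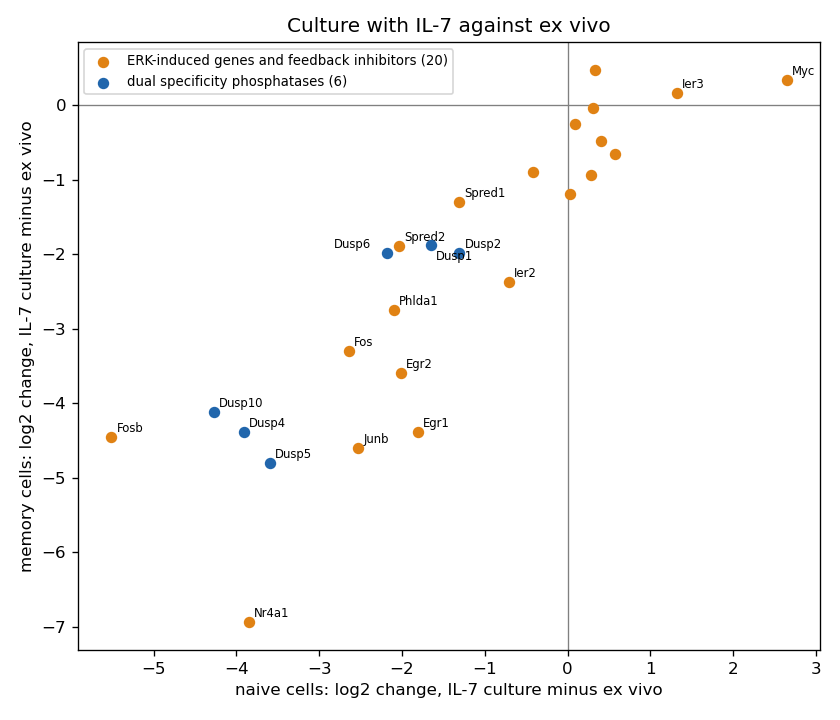
Log2 change in IL-7 culture against ex vivo in naive cells (horizontal axis) and memory cells (vertical axis), for the 6 phosphatase genes (blue) and 20 ERK-induced genes and feedback inhibitors (orange). The 6 phosphatase genes and 10 labelled orange genes lie in the lower left; Myc and Ier3 lie to the right. The axes use different ex vivo and culture arrays but 1 shared estimate of spread.

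Of 15 further dual specificity phosphatases tested, 2 were lower in memory cells in IL-7, Dusp8 by -1.69 (adjusted p = 0.0114) and Dusp16 by -1.74 (adjusted p = 0.0348), both of which act on JNK and p38, and Ssh1, a cofilin phosphatase, was higher by 1.03; these counts are near the 8.85% and 11.1% of all genes called lower and higher there. In naive cells 0 of 15 were called; Dusp16 was nonetheless at 9.54 and 9.79 ex vivo and at 7.56 and 7.99 in IL-7. IL-4 changed 0 of the 15 in each of the 3 comparisons. The list medians in IL-7 were -0.09 in memory and 0.15 in naive cells. Of 7 phosphatases from other families that act on MAP kinases, Ppm1d, induced by p53, was lower in memory (-0.89) and naive cells (-1.36) in IL-7, Ppm1l was higher in both (1.12 and 0.88), and Ppp2cb was lower in memory cells (-0.74), against the same shares of all genes: 8.85% lower and 11.1% higher in memory, 5.8% and 7% in naive cells.

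Of 7 MAP kinases tested, Mapk8, which encodes JNK1, was lower in IL-7 than ex vivo in memory (-0.80, adjusted p = 0.0103) and naive cells (-0.88, adjusted p = 0.0169). So was Mapk6, an atypical MAP kinase (-0.89 and -0.96), and Mapk9, which encodes JNK2, was higher in memory cells (0.62). Of all genes, 8.85% were called lower and 11.1% higher in memory cells there, and 5.8% and 7% in naive cells. IL-4 changed 0 of the 7. Of 17 kinases and activators above them, IL-4 raised Map3k8, the kinase TPL2 that activates the ERK pathway, and Rasgrp1, which loads Ras with GTP after receptor signals, in all 3 comparisons. In naive cells Map3k5, a stress-activated kinase above JNK and p38, was lower with IL-4 (-0.81, adjusted p = 0.0426; 0.378% of all genes were called lower). Map3k8 was at 6.94 and 7.29 in memory IL-7 and at 9.39 and 10.00 with IL-4 added (2.58, adjusted p = 0.00274), and its changes were 2.64 in memory cells without IL-7 (adjusted p = 0.00215) and 1.99 in naive cells (adjusted p = 0.0217). Rasgrp1 changed by 1.44 (adjusted p = 0.0366), 2.25 (adjusted p = 0.00184) and 1.44 (adjusted p = 0.0451) in the same order. Unlike Dusp10, Map3k8 and Rasgrp1 were each called above their ex vivo level in every group with IL-4. Rasgrp1 was at 11.91 and 12.38 in memory cells with both cytokines against 9.74 to 10.38 ex vivo. Map3k1, a kinase above JNK, was lower in IL-7 than ex vivo in memory (-2.17) and naive cells (-3.10), the 1 of the 17 called in naive cells. In memory cells Map3k8 (-1.49) and Map2k3, a kinase of p38 (-0.70), were also lower and Map3k7, which encodes TAK1, was higher (0.60). That made 3 of 17 lower and 1 higher, where 8.85% and 11.1% of all genes were. The 1 of 17 lower in naive cells is near the 5.8% of all genes called lower there.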

How the data were processed

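RNA of 18 samples was amplified and hybridised to Affymetrix arrays, per the labels' protocols. The authors deposited log2 values; RMA and limma are named, without versions, in the submitters' processing notes, and the annotation of probes is that of the array's platform. Of 45101 probe sets, 34958 had 1 symbol, 932 several and 9211 none; the latter 2 kinds were not used. The brightest probe set by its mean over the 18 arrays stood for each gene. Tested were genes that passed 4.06 (percentile 40 over all values) on 2 or more arrays. Limma 3.58.1 (R 4.3.3) was fitted to 8 groups together, with no block, and called genes at an adjusted p (Benjamini-Hochberg over 13770 genes) under 0.05; the fit was tested on simulated data. Members and gene lists were chosen with earlier results of these data known; 3 comparisons and the CArG box were added after seeing the data. Named were all members, the 3 genes most like each, and list genes past the threshold or with the largest changes. Alternatives were no filter, the mean of a gene's probe sets, robust limma-trend, a replicate block and leaving out each array. Replicate numbers are not stated to mark a sorted population, and 31 of 56 same-numbered pairs of arrays deviated together (correlation over 0.1, range -0.18 to 0.51). Between groups of 2 arrays the deviations mirror each other, so both numbers give the same correlation and most of the 56 are repeats. The numbers were not taken to pair the arrays. Background correction and normalization could not be varied, since the analysis starts from RMA values, whose quantile step assumes similar distributions across arrays (array medians 4.62 to 4.76). The precision is limited by 2 arrays in most groups.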

Additional observations from a re-analysis of the deposited data

How the results depend on the processing

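The counts of called phosphatase genes were the same in all 17 comparisons with the mean of a gene's probe sets and with robust limma-trend. With no filter on low values, naive cells in IL-7 against ex vivo went from 6 to 5 genes, as Dusp2 lost its call (adjusted p = 0.0538). With the replicate block 2 counts differed: naive cells in IL-7 against ex vivo went from 6 to 5, again through Dusp2 (adjusted p = 0.0518), and IL-4 without IL-7 in memory cells went from 1 to 2, the added gene being Dusp6 (adjusted p = 0.0389). The numbers are not known to pair the arrays, although 16 of 16 arrays were on average closer to arrays of their own number, as a hint from the data. In groups of 2 the arrays are not independent in that count, since their deviations mirror each other. The block also turned memory minus naive ex vivo of Dusp2 to -0.17 and of Dusp5 to -0.0234. The mean of the probe sets turned Dusp10 to -0.053 for IL-7 in the presence of IL-4 and to -0.17 for memory minus naive in IL-7. None of these 4 was called.

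Leaving out 1 array in turn moved the number of called genes most. It ranged from 0 to 6 for memory cells in IL-7 against ex vivo, 1 to 6 for naive cells, 0 to 5 for medium against ex vivo, 1 to 5 for naive cells with both cytokines against ex vivo, 0 to 2 for IL-4 on memory cells in IL-7, 0 to 5 without IL-7, 0 to 1 on naive cells, 0 to 5 for IL-7 against medium, 0 to 4 for the IL-4 response with minus without IL-7, and 0 to 1 for memory against naive in IL-7. The sign turned in 38 of these single-gene fits. With a medium array left out, the ranges were -0.50 to 3.31 for Dusp10 and -4.05 to 0.59 for Dusp5 (IL-4 without IL-7), -3.77 to 0.0382 for Dusp10 (medium against ex vivo) and -4.64 to 0.0029 for Dusp5 (IL-7 without IL-4). The rest were small values not called as reported. For memory minus naive ex vivo they were -0.27 to 0.17 for Dusp1, -0.20 to 0.68 for Dusp4, -0.47 to 0.15 for Dusp6 and -0.18 to 0.0824 for Dusp10. In IL-7 they were -0.25 to 0.24 for Dusp6 and -0.0002 to 0.23 for Dusp10, and with both cytokines -0.79 to 0.0573 for Dusp4, -0.29 to 0.24 for Dusp5 and -0.59 to 0.13 for Dusp10. For IL-7 in the presence of IL-4 they were -0.58 to 0.35 for Dusp1, -0.0014 to 0.39 for Dusp2, -0.15 to 0.65 for Dusp6 and -0.15 to 0.19 for Dusp10. For IL-4 on naive cells Dusp5 ran from -0.22 to 0.31, and for naive cells with both cytokines against ex vivo Dusp10 ran from -0.62 to 0.10. For the IL-4 response, memory minus naive, they were -0.29 to 0.10 for Dusp2, -0.56 to 0.29 for Dusp4 and -0.70 to 0.0158 for Dusp10, and for the IL-7 culture change, memory minus naive, -0.15 to 0.47 for Dusp6. Where an array is left out of a pair, its partner is assumed to vary like the other groups.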
